A study of Mus musculus with 16 samples.

Results

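The genes of elastic fibres and of the lysyl oxidase enzymes that cross-link them were examined in the bladder body of mature (MAT) and aged (AGED) mice. The set held 10 genes, Eln, Fbn1, Fbln5, Mfap4, Mfap5, Emilin1, Ltbp4, Lox, Loxl1 and Loxl2, out of 26781 genes tested on the arrays. A symbol was found for 15929 of the 26781, and the others were entries without one. A probe was taken as a member when its transcript accession mapped to the symbol of a member in the RefSeq gene table, which gave 16 of 55681 probes. All 10 genes and all 16 probes passed the filter on dim signals. The mice were C57BL/6 with no transgene or drug treatment named in the labels. The age of the MAT mice was 12 months and that of the AGED mice 27 to 30 months. Total RNA of 1 bladder body was hybridised to each Agilent 1-colour array, with 4 males and 4 females of either age, 16 arrays in all. The comparison addressed here was whether expression of these genes differed with age in either sex.

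Elastic fibres let a hollow organ stretch and recoil. Their core is elastin, which is secreted as soluble tropoelastin, placed onto a scaffold of fibrillin microfibrils by fibulins and latent TGF-beta binding proteins, and made insoluble by lysyl oxidases, copper enzymes that oxidise lysine side chains so that they cross-link. In the bladder wall elastic fibres run among collagen bundles and detrusor muscle and take part in storage of urine at low pressure.

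Every level below is a log2 signal relative to the 75th percentile of the spots on the same array, so a value of 0 means a signal equal to that percentile. A difference is the mean of the AGED arrays minus the mean of the MAT arrays on that scale. The probe that stood for its gene was A_52_P609972 for Eln, A_51_P467224 for Fbn1, A_55_P2088615 for Fbln5, A_55_P2005470 for Mfap4, A_55_P2062777 for Mfap5, A_51_P222359 for Emilin1, A_51_P403536 for Ltbp4, A_66_P138929 for Lox, A_51_P304239 for Loxl1 and A_52_P480351 for Loxl2. Each was well above background on all 16 arrays. Levels of different genes come from different probes and were not set against each other. Directions follow the age given in the label deposited with each array. Under these labels those genes tested here that lead the study's own lists of age-related changes, among them Chil3 and Kcnj5, ran in the direction opposite to the listed one, so the sign of each age difference here rests on the labels. Some of these differences were small, at 0.12 in males and 0.15 in females for F10 and -0.23 in females for Gsg1l. A gene was called when limma's adjusted p was below 0.05 and the difference reached 2-fold.

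Between 52.3% and 68.2% of probes were well above background per array, and the lowest share was on AGED male replicate 1, which was also the dimmest array. The slide divided the sexes and the row within each slide divided the ages (row 1 for MAT, row 2 for AGED). Sex and slide, and age and row, therefore cannot be told apart. A probe of each of the 7 smooth muscle genes Acta2, Myh11, Actg2, Des, Cnn1, Tagln and Smtn was well above background on all 16 arrays. So was a probe of each of the urothelial genes Upk1a, Upk1b, Upk2 and Upk3a. In whole bladder body, fewer cells of a type and less RNA per cell cannot be told apart.

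None of the 10 genes was called with age in males (0 of 10, where 0.859% of all genes tested were called) or in females (0 of 10, background 0.19%). Without the limit on fold, limma's adjusted p still passed for 0 of 10 in males and 0 of 10 in females, against 1.74% and 0.232% of all genes. At an unadjusted p below 0.05, 2 genes passed in males, Ltbp4 and Loxl2, and 1 in females, Ltbp4. The background at that level was 16.2% of all genes in males and 10.5% in females. The methods' t-test with the fold limit called 0 of 10 in either sex, both at the study's threshold and after Benjamini-Hochberg adjustment. No difference in the set reached 2-fold in either sex, so any count with the fold limit had to be 0, whatever the p. The 95% intervals of the 10 differences reached from -0.94 to 1.39 in males and from -0.81 to 1.43 in females, and a 2-fold difference lay inside the intervals of Eln, Mfap4 and Loxl2 in both sexes and of Fbn1 in females.

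The differences were small in both directions. In males 3 of 10 genes had a positive age difference and 7 a negative one, or 6 and 4 with normexp background correction, which here started from the raw median signal of each spot in place of the processed signal. The male median was -0.11 on the log2 scale, beside a median of 0 over all genes, with 3 of 10 genes above the latter. With normexp on raw signals the male median of the set was 0.03 and that of all genes 0.12. Of the set, 4 of 10 genes were then above the median of all genes. In females 7 genes were higher and 3 lower with a median of 0.20, and the median over all genes was -0.01. The female median was -0.15 without AGED female replicate 4, so its sign rested on that array. Eln, Mfap4 and Loxl2 were higher, and Fbln5, Emilin1 and Ltbp4 lower, in AGED mice of both sexes, 3 of 10 genes each, where 28.8% of all genes were higher and 29.5% lower in both.

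**Figure D1:**
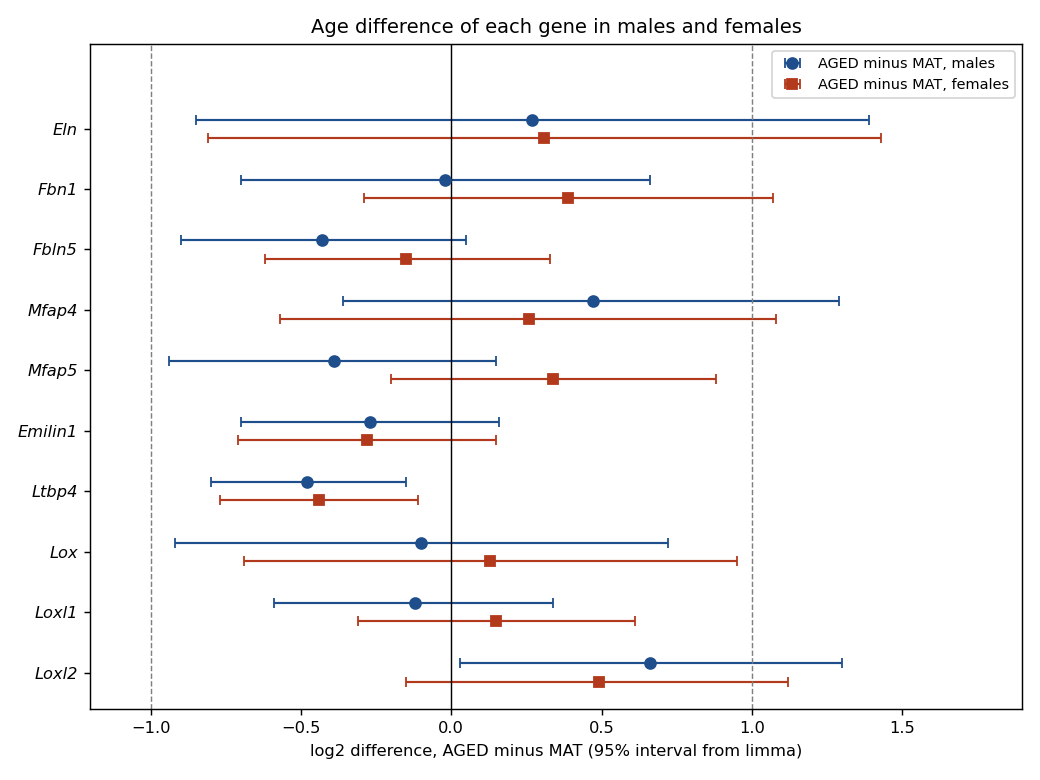
Age difference of each gene (AGED minus MAT, log2 scale) in males (circles) and females (squares), with limma's 95% interval as bars and 2-fold changes as dashed lines. No point lies beyond a dashed line, and in both sexes only the bar of Ltbp4 lies wholly below 0.

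Ltbp4 had the smallest adjusted p of the set in each sex, while its differences stayed below the 2-fold limit and below those of Loxl2. It encodes latent TGF-beta binding protein 4, a microfibril protein that binds fibulin-5 and helps elastin to be laid down in linear fibres. RefSeq holds several transcription starts for it, and the promoters of 4 of 10 members (Emilin1, Fbln5, Fbn1 and Ltbp4) were in the sequence table. The 250 bases before the outer and an inner start of Ltbp4, and before a start of Fbln5, its binding partner, are shown because Ltbp4 had the smallest p of the set. All are on the minus strand of GRCm38.p6 and are written 5′ to 3′. Capitals mark GGGCGG, the GC box bound by Sp1, on either strand, and matches may overlap. CAGAC, a Smad-binding core, and TATAAA were searched on both strands as well.
Ltbp4, outer start, chr7:27337613-27337862: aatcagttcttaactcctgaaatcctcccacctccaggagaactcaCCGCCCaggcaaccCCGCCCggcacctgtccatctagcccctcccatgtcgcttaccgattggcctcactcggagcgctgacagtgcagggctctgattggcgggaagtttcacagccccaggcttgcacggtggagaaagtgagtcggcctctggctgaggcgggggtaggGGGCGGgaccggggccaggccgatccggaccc
Ltbp4, inner start, chr7:27333664-27333913: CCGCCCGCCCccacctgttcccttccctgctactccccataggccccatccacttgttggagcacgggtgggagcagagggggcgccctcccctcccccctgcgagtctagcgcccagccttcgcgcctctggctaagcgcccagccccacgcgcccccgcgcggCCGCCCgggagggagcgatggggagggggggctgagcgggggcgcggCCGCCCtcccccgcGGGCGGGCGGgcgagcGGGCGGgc
Fbln5, chr12:101819120-101819369: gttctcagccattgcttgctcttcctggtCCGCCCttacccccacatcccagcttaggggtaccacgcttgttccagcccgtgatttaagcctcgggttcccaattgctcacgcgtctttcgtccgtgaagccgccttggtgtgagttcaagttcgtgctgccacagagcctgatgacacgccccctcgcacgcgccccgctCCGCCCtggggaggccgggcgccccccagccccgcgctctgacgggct
Of the windows not printed, the one of a further inner Ltbp4 start, which overlaps the inner window shown, held 5 GC boxes. That of a second Fbln5 start held 2 CAGAC and 0 GC boxes. The Emilin1 window held 2 CAGAC and 0 GC boxes, and the Fbn1 window 0 CAGAC and 1 GC box. The outer Ltbp4 window held 3 GC boxes and the inner window 7, and the Fbln5 window held 2. At least 3 were found in 8.5%, and at least 1 in 32.7%, of 32851 promoter windows of the same length. CAGAC and TATAAA were in none of the 3 windows shown, and in 42.2% and 12.4% of all windows. The GC content was 64.4%, 79.2% and 65.2% in the order printed, beside a median of 52.4%. These matches describe letters only and do not show binding.

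The level of Ltbp4 was 5.71, 5.78, 5.66 and 5.89 in the 4 MAT males and 4.80, 5.66, 5.35 and 5.32 in the 4 AGED males (mean ± SD 5.76 ± 0.10 and 5.28 ± 0.36). AGED male replicate 1 was the lowest array, and the highest AGED male met the lowest MAT male at 5.66, so the groups overlapped. The difference was -0.48 (SE 0.15, 1.39-fold lower), with limma's adjusted p = 0.143.
In females the level of Ltbp4 was 5.74, 5.65, 5.90 and 5.97 in MAT and 5.35, 5.50, 5.39 and 5.25 in AGED bladders (5.82 ± 0.15 and 5.37 ± 0.10). Every AGED female was below every MAT female. Ltbp4 was the 1 gene of 10 whose female age groups did not overlap, and 10.8% of all genes did not overlap in this comparison. In males 0 of 10 genes were free of overlap, where the background was 7.76%. The female difference was -0.44 (SE 0.15, 1.36-fold lower, adjusted p = 0.33), and averaged over both sexes it was -0.46 (SE 0.11, 95% interval -0.69 to -0.23, adjusted p = 0.0566). The adjusted p of that mean fell below 0.05 under 7 of 27 alternatives, among them the fits without AGED male replicate 1 (0.0364) and without AGED male replicate 2 (0.0198), and the 2-fold limit was not reached under any of them. The other probe of Ltbp4, A_55_P2033500, gave 3.79, 3.93, 3.90 and 3.59 in MAT males and 3.57, 3.63, 3.07 and 3.22 in AGED males, and 3.73, 3.72, 3.97 and 3.92 in MAT females and 3.74, 3.36, 3.59 and 3.70 in AGED females. Its differences had the same sign, at -0.43 in males (exact permutation p = 0.0571) and -0.24 in females (exact permutation p = 0.0857), where the smallest two-sided p that 4 arrays against 4 allow is 0.0286. With the same permutation test A_51_P403536 gave p = 0.0571 in males and 0.0286 in females. The age difference of males did not pass a test against that of females (difference of the differences -0.03, 95% interval -0.50 to 0.43, adjusted p = 0.98).

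**Figure D2:**
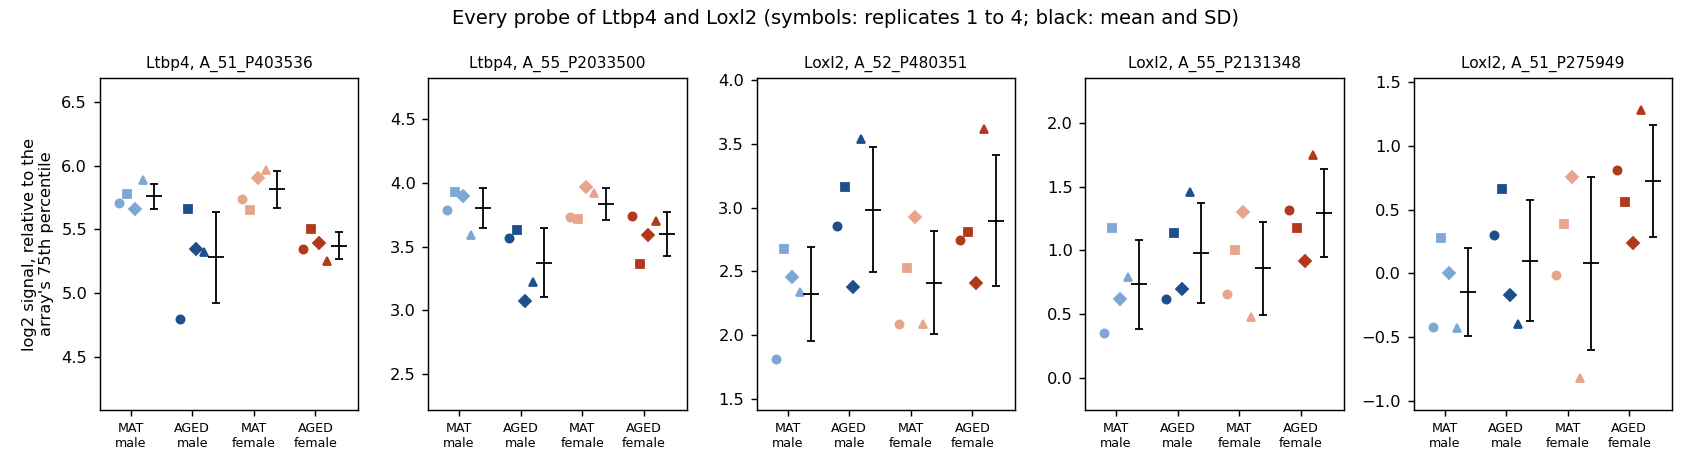
Log2 signal relative to the 75th percentile of the array for both probes of Ltbp4 and the 3 probes of Loxl2 in the 4 groups (circle, square, diamond and triangle for replicates 1 to 4, black for mean and SD). All panels span a range of the same width, each about its own centre. The Ltbp4 means are lower and the Loxl2 means higher in AGED than in MAT mice of each sex on every probe, with overlap in all cases except A_51_P403536 of Ltbp4 in females.

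Eln encodes elastin itself. Its level was -1.78, -0.63, -1.34 and -0.73 in MAT males and -2.05, -0.35, -1.09 and 0.08 in AGED males. In MAT females it was -1.0, -0.89, 0.59 and -1.06, and in AGED females -0.83, -0.61, -0.79 and 1.09. The groups overlapped in both sexes, and 1 female array of each age, MAT replicate 3 and AGED replicate 4, lay far above the other 3. The age difference was 0.27 in males (SE 0.52, adjusted p = 0.83) and 0.31 in females (SE 0.52, adjusted p = 0.905). Without AGED female replicate 4 the female difference was -0.15, and without AGED male replicate 4 the male difference was -0.04. The 4 group means were ordered AGED female -0.29, MAT female -0.59, AGED male -0.85 and MAT male -1.12, with group SDs of 0.54 to 0.93, so that no neighbours in this order differed beyond their spread.

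Among the scaffold genes, Fbn1 encodes fibrillin-1, the main protein of microfibrils. It measured 1.51, 1.57, 1.88 and 2.20 in MAT males against 0.86, 2.53, 1.53 and 2.18 in AGED males. Its MAT females were at 2.27, 2.47, 2.46 and 1.61 and its AGED females at 2.65, 2.50, 2.17 and 3.04. AGED male arrays spread to both sides of the MAT males, and the female groups overlapped. The difference was -0.02 in males (SE 0.32, adjusted p = 0.984) and 0.39 in females (SE 0.32, adjusted p = 0.736).
Mfap5, a microfibril-associated glycoprotein that binds fibrillin, was at 3.30, 4.16, 3.72 and 3.93 in MAT males and 2.78, 3.80, 3.23 and 3.72 in AGED males. Its values were 3.90, 3.94, 4.06 and 3.36 in MAT females and 4.16, 3.94, 3.89 and 4.64 in AGED females. The age groups overlapped in each sex, with the male mean lower and the female mean higher in AGED mice. The difference was -0.39 in males (SE 0.25, adjusted p = 0.462) and 0.34 in females (SE 0.25, adjusted p = 0.70). Of the 10 genes Mfap5 had the smallest p for a difference between the sexes in the age change (-0.73, SE 0.36), and it did not pass (limma's adjusted p = 0.529). On this test 0 of 10 genes were called, 0 passed at an unadjusted p below 0.05, and the background was 0.194% and 9.84% of all genes.
Mfap4 encodes a glycoprotein that binds elastin and fibrillin. It was at 3.89, 4.20, 3.71 and 4.70 in MAT males and 4.51, 4.85, 4.34 and 4.65 in AGED males. The female values were 3.67, 3.28, 3.71 and 3.35 in MAT and 3.88, 3.75, 2.41 and 4.99 in AGED bladders. AGED females held both the lowest and the highest value of the 16 arrays, and the age groups overlapped in each sex. With age it differed by 0.47 in males (SE 0.39, adjusted p = 0.573) and by 0.26 in females (SE 0.39, adjusted p = 0.885). The female value was -0.15 without AGED female replicate 4.

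Fbln5 encodes fibulin-5, which binds tropoelastin, Ltbp4 and Loxl1 and guides elastin onto microfibrils. Its tested probe was at 3.41, 3.98, 4.07 and 3.85 in MAT males and 2.76, 3.84, 3.19 and 3.81 in AGED males. In females it read 3.90, 4.09, 4.21 and 4.10 for MAT and 3.99, 3.61, 3.94 and 4.17 for AGED. AGED male replicates 1 and 3 were below every MAT male, and the other AGED males were within the MAT range. The difference was -0.43 in males (SE 0.22, adjusted p = 0.358) and -0.15 in females (adjusted p = 0.888). A second probe, A_52_P278336, was dim and well above background on 14 of 16 arrays. It differed by 0.52 in males, the opposite sign, and by -0.57 in females (exact permutation p = 0.514 and 0.0571). The male value rested on AGED male replicate 4, at -2.85. The other AGED males were at -5.27 to -4.84 and the MAT males at -5.29 to -4.58.
Emilin1 lies at the interface of elastin and microfibrils and restrains processing of pro-TGF-beta. It was at -1.47, -1.58, -1.67 and -1.19 in MAT males and -2.10, -1.27, -1.94 and -1.71 in AGED males. It was at -0.96, -0.96, -1.27 and -1.23 in MAT females and -1.56, -1.81, -1.11 and -1.06 in AGED females. In each sex 2 or more AGED arrays fell below all MAT arrays and the rest lay among them. The differences were -0.27 in males and -0.28 in females (SE 0.20 each, limma's adjusted p = 0.524 and 0.684).

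**Figure D3:**
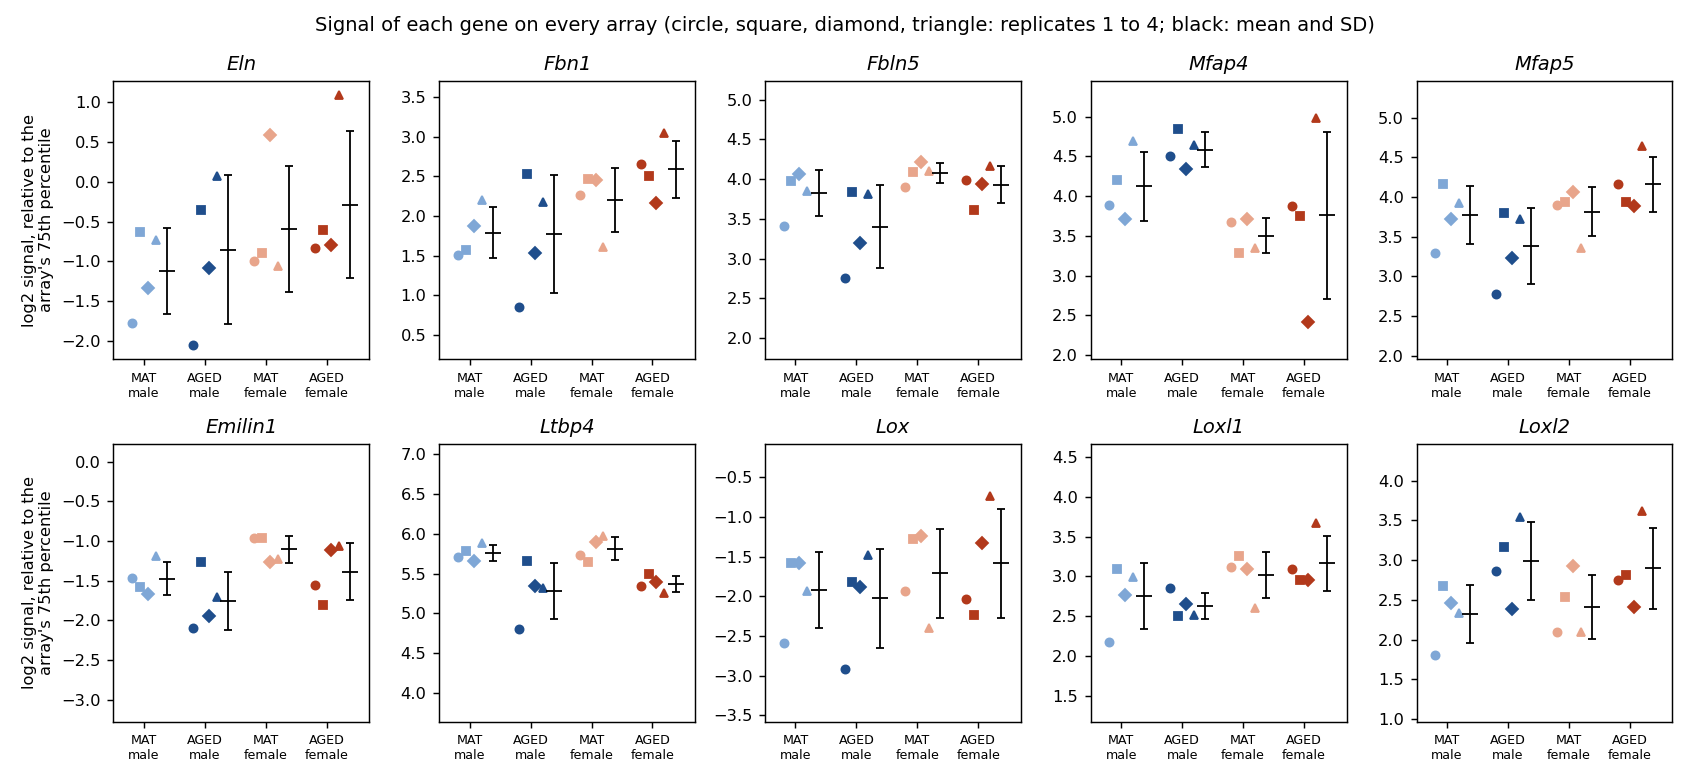
Log2 signal relative to the 75th percentile of the array for each of the 10 genes on all 16 arrays (circle, square, diamond and triangle for replicates 1 to 4, black for mean and SD of 4 arrays). All panels span a range of the same width, each about its own centre. Age groups of the same sex overlap for every gene except Ltbp4 in females, and Eln in AGED females spans -0.83 to 1.09.

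Of the cross-linking enzymes, Lox encodes the founding lysyl oxidase, which acts on both elastin and fibrillar collagen. Its tested probe was at -2.59, -1.58, -1.58 and -1.94 in MAT males and -2.92, -1.82, -1.88 and -1.48 in AGED males. In MAT females the values were -1.93, -1.28, -1.24 and -2.40, and in AGED females -2.04, -2.23, -1.33 and -0.74. Replicate 1 was the lowest array in both male groups, and the age groups overlapped in both sexes. The difference was -0.10 in males and 0.13 in females (SE 0.39 each, adjusted p = 0.924 and 0.954). The second probe, A_55_P2032678, gave -0.36 in males and 0.42 in females (exact permutation p = 0.40 for each).
Loxl1, which is guided to elastin by fibulin-5, was at 2.17, 3.09, 2.77 and 2.99 in MAT males and 2.85, 2.50, 2.65 and 2.52 in AGED males. It was at 3.12, 3.26, 3.09 and 2.60 in MAT females and 3.09, 2.95, 2.95 and 3.67 in AGED females. AGED males lay inside the range of MAT males. The difference was -0.12 in males (SE 0.22, adjusted p = 0.807) and 0.15 in females (SE 0.22, adjusted p = 0.879). A second probe, A_55_P2096226, gave 0.01 and 0.21 (exact permutation p = 1 and 0.429).
Loxl2 acts on collagens of basement membranes and is also secreted in scarring tissue. It was at 1.81, 2.68, 2.46 and 2.34 in MAT males and 2.86, 3.16, 2.38 and 3.54 in AGED males (mean ± SD 2.32 ± 0.37 and 2.98 ± 0.49). It measured 2.09, 2.53, 2.93 and 2.09 in MAT females and 2.75, 2.81, 2.41 and 3.62 in AGED females (2.41 ± 0.40 and 2.90 ± 0.51). In males 3 AGED arrays were above every MAT array and the other was among them, and in females 1 was above and 3 were among them. The difference was 0.66 in males (SE 0.30, 1.58-fold higher, unadjusted p = 0.0417 and limma's adjusted p = 0.285) and 0.49 in females (SE 0.30, 1.40-fold higher, adjusted p = 0.612), and averaged over the sexes it was 0.57 (SE 0.21, adjusted p = 0.178). The other probes had the same sign, at 0.25 and 0.24 in males and 0.43 and 0.64 in females, with exact permutation p from 0.171 to 0.429. Averaged over the sexes, 0 of 10 genes were called and 2, Ltbp4 and Loxl2, had an unadjusted p below 0.05, where 0.295% and 17.8% of all genes did so.

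Levels of the set were mostly lower in males than in females, on separate slides. In MAT mice 9 of 10 genes were lower in males, with a median difference of -0.23, and in AGED mice 8 of 10, with a median of -0.48. Over all genes the medians were 0.09 in MAT and 0.10 in AGED mice, the opposite sign. With normexp correction of the raw median signals the AGED count was 7 of 10 and the median -0.17, beside 0.26 over all genes. In AGED mice 1 of 10 genes was above the median of all genes, and 2 of 10 with normexp. No gene of the set was called in MAT mice (0 of 10, background 0.168%) or in AGED mice (0 of 10, background 3.14%). At an unadjusted p below 0.05 there were 0 in MAT mice (background 14.6%) and 5 in AGED mice (background 26.8%). These 5 were Fbn1 (-0.82, adjusted p = 0.117), Fbln5 (-0.53, adjusted p = 0.147), Mfap5 (-0.77, adjusted p = 0.0674) and Loxl1 (-0.53, adjusted p = 0.131), lower in males, and Mfap4 (0.83, adjusted p = 0.181), higher in males. Fbn1, Mfap5 and Mfap4 encode scaffold proteins, Fbln5 an assembly protein and Loxl1 an enzyme. Every AGED male was below every AGED female for Mfap5 and Loxl1, 2 of 10 genes where 13.8% of all genes did not overlap. In MAT mice the groups were apart for Mfap4 alone, higher in males (0.62, adjusted p = 0.48), where the background was 19.5%. Without AGED male replicate 2 Fbn1 was called in AGED mice (-1.07, adjusted p = 0.0435), and without AGED female replicate 4 Mfap4 was called (1.24, adjusted p = 0.0366).

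Levels of the 10 genes varied together from bladder to bladder within a group. After the mean of its group was taken from each array, the median correlation over the 45 pairs of genes was 0.54 across 16 arrays, with a range of -0.38 to 0.86, and 28 pairs were above 0.5. The mean over these pairs was 0.49, and the mean over all pairs of genes tested was 0.007. These correlations are descriptions, and the values of a pair share an array and its scaling. The highest were between Eln and Mfap5 (0.86), Fbn1 and Mfap5 (0.85), Eln and Loxl2 (0.82) and Mfap5 and Lox (0.81). Ltbp4 and Loxl1 were the pair below 0, at -0.38. Without AGED female replicate 4 the median over the pairs was 0.46, and without AGED male replicate 1 it was 0.55.
The mean of the 10 genes, each centred over the 16 arrays, was lowest on AGED male replicate 1 (-0.65) and MAT male replicate 1 (-0.48) and highest on AGED female replicate 4 (0.78). AGED male replicate 1 held the lowest AGED male value of 7 of 10 genes. It ranged from -0.48 to 0.12 in MAT males, from -0.65 to 0.21 in AGED males, from -0.24 to 0.36 in MAT females and from -0.09 to 0.78 in AGED females, so the age groups overlapped in each sex.

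**Figure D4:**
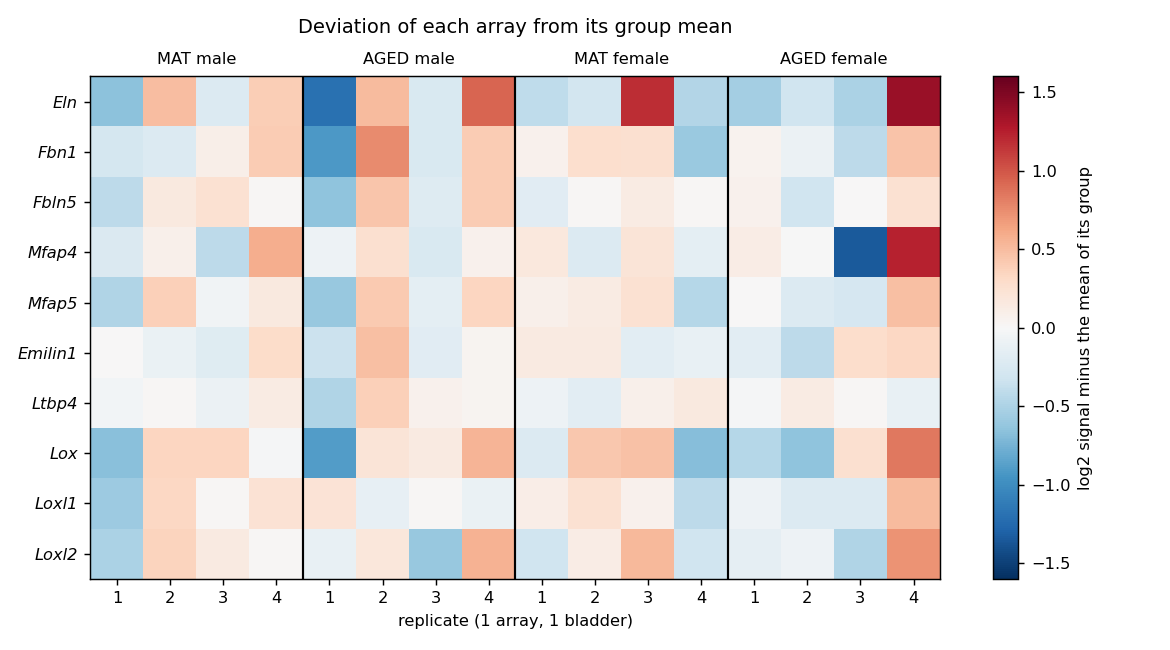
Deviation of each of the 10 genes (rows) from the mean of its group on each of the 16 arrays (columns, replicates 1 to 4 in 4 groups), in log2 units from blue (below) to red (above). Most rows are red on AGED female replicate 4 and blue on AGED male replicate 1, where the mean deviation of the genes is 0.60 and -0.51.

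Markers of the cell types of the bladder wall were set beside the mean of the 10 genes on the same deviations. Across 16 arrays it correlated with the mean of 7 fibroblast genes (Pdgfra, Col1a1, Col1a2, Dcn, Lum, Dpt and Pi16) at 0.65. The other lists were at 0.18 for smooth muscle, -0.04 for urothelium, 0.14 for endothelium, 0.17 for macrophages, 0.28 for adipocytes, 0.22 for mesothelium and -0.09 for peripheral nerve. Apart from fibroblasts and adipocytes (0.68 and 0.28 without AGED male replicate 1, 0.46 and 0.25 without AGED female replicate 4), these values rested on single arrays. Without AGED male replicate 1 they were 0.36 for smooth muscle, -0.43 for urothelium, 0.50 for endothelium, 0.80 for macrophages, 0.49 for mesothelium and -0.42 for nerve. Without AGED female replicate 4 they were -0.20, 0.14, 0.11, -0.22, -0.12 and 0.25 in the same order. The brightness of the array, as its 75th percentile, was at -0.03, at -0.55 without the former array and at 0.37 without the latter. The fibroblast mean was 4.98 to 5.03 in MAT males, 4.21 to 5.09 in AGED males, 5.06 to 5.22 in MAT females and 4.75 to 5.60 in AGED females. In males 6 of 7 fibroblast genes were lower in AGED mice with a median of -0.45, and in females 5 of 7 with a median of -0.06. Of the 7, 0 were called in either sex, where 0.859% of all genes were called in males and 0.19% in females. At an unadjusted p below 0.05 from limma, Col1a1, Col1a2 and Dpt passed in males, 3 of 7, and 0 in females. The background at that level was 16.2% and 10.5%. Every fibroblast marker had a probe in use and none was at background throughout. The part of fibroblast content in the values above was not tested.
For the other lists 0 genes were called with age, where 0.859% of all genes were called in males and 0.19% in females. At an unadjusted p below 0.05 from limma, males had 1 macrophage, 1 urothelial and 1 nerve gene (background 16.2%). Females had 3 of 4 nerve, 2 of 5 macrophage, 1 smooth muscle, 1 adipocyte and 1 mesothelial gene (background 10.5%). The remaining lists had 0 in that sex. Median differences of the lists in males and females were 0.04 and 0.04 for 7 smooth muscle genes, -0.08 and 0.08 for 7 urothelial genes, -0.06 and -0.09 for 5 endothelial genes, 0.36 and 0.37 for 5 macrophage genes, -0.59 and -1.12 for 5 adipocyte genes, -0.33 and 0.63 for 4 mesothelial genes and -0.21 and -0.74 for 4 nerve genes. In AGED mice 1 of 7 fibroblast markers, Dpt, was called lower in males than in females (-1.38, limma's adjusted p = 0.0127), where 3.14% of all genes were called. AGED males and AGED females overlapped for Dpt.

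A wider list of 38 elastic fibre genes held microfibril and assembly proteins, other cross-linking genes, elastin-degrading enzymes and parts of the elastin receptor. Of these 37 were tested, since Mmp12, macrophage elastase, did not pass the filter on dim signals. With age 0 of 37 were called in either sex, where 0.859% of all genes were called in males and 0.19% in females. In males 13 were higher and 24 lower in AGED mice with a median of -0.11, and in females 19 were higher and 18 lower with a median of 0. At an unadjusted p below 0.05 there were 6 of 37 in males and 3 of 37 in females, where 16.2% and 10.5% of all genes passed.
The 3 with the largest differences in males were lower in AGED mice. Loxl3, a further lysyl oxidase, was at -0.27 to 0.01 in MAT males and -1.67 to -0.48 in AGED males (-0.79, SE 0.22, adjusted p = 0.0911). Thsd4, which promotes assembly of fibrillin-1 fibrils, was at -1.48 to -0.69 and -2.42 to -1.53 (-0.68, SE 0.22, adjusted p = 0.147). Mfap1a, named for microfibrils but known as a spliceosome component, overlapped between the ages (-0.72, SE 0.27, adjusted p = 0.202). The male groups of Loxl3 and Thsd4 did not overlap. Both were picked for the size of this difference, so the 7.76% of all genes free of overlap is no like comparison. In females the difference of Loxl3 was -0.06 and that of Thsd4 -0.10. Thsd4 was the 1 of 37 genes called between the sexes in AGED mice, lower in males (-1.10, SE 0.22, adjusted p = 0.00883), where 3.14% of all genes were called.
In females the largest differences were of Adamtsl2, Elane and Neu1. Adamtsl2, which binds fibrillin-1 and Ltbp1, overlapped between the ages (1.06, SE 0.60, adjusted p = 0.567). Elane, neutrophil elastase, was at -0.02 to 0.23 in MAT and -1.58 to -0.13 in AGED females (-0.88, SE 0.34, adjusted p = 0.383). Neu1, the sialidase subunit of the elastin receptor complex, was at 2.17 to 3.08 and 3.29 to 3.52 (0.58, SE 0.18, adjusted p = 0.253). The female groups of Elane and Neu1 did not overlap. As both were picked for their difference in females, the 10.8% of all genes free of overlap is no like comparison.

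**Figure D5:**
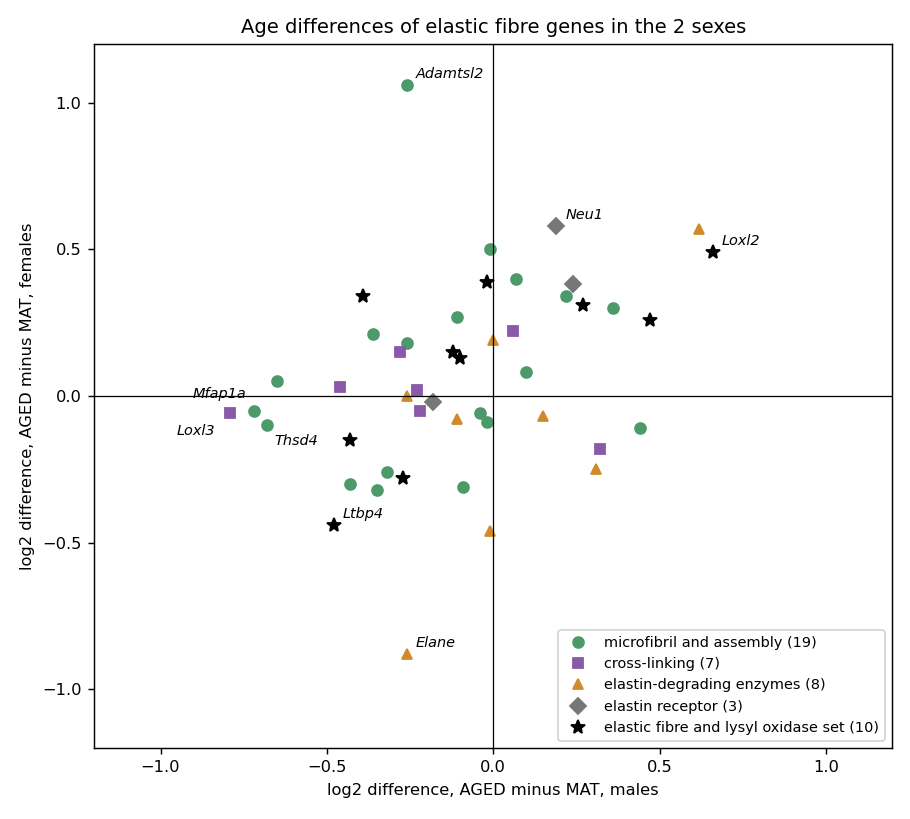
Age difference (AGED minus MAT, log2 scale) in males (horizontal) against females (vertical) for 37 other elastic fibre genes by role and the 10 genes of the set (stars). Ltbp4 lies at -0.48 and -0.44 and Loxl2 at 0.66 and 0.49. No gene plotted was called in either sex, where 0.859% of all genes were called in males and 0.19% in females.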

How the data were processed

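The authors scanned the Cy3-labelled arrays and deposited an intensity for each of 62976 spots, the processed signal of Agilent Feature Extraction (version 10.7.3.1 per the file headers, 9.1 in the submitters' processing notes), background-subtracted within the array and not scaled between arrays, with design build mm9. They also deposited a table of log2 values centred on each probe's median. Column medians of that table were -0.125 to 0.29, and it correlated with the scaled intensities at 0.9997 or above, so it served as an alternative. Its scale, centring and direction matched.

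Control spots and 399 outlier-flagged probe values were left out, and 0 spots were saturated. Spots of a probe were averaged. The log2 intensity minus the 75th percentile of the array's spots was used. Probes needed a signal well above background on 4 or more of the 16 arrays (36972 of 55681 passed). The brightest kept probe stood for its gene, 26781 genes in all. A symbol was found for 15929 of them, and the others kept the array's own identifier. Shares of all genes run over both kinds of entry. Accessions were named through the RefSeq gene table of GRCm38.p6 without coordinates, which named 26576 probes. limma 3.58.1 in R 4.3.3 fitted 4 group means to all 16 arrays (12 residual degrees of freedom), with Benjamini-Hochberg adjustment over all genes. The script was tested on simulated data. Other probes of a gene, and for comparison the first probes of Ltbp4 and Loxl2, were tested with exact two-sided permutation tests of 4 arrays against 4. Named genes were the 10 members, the 3 genes of the wider list with the largest differences in each sex, and the 5 genes most like Eln or the mean of the members. The members and lists were chosen with earlier results of these data known. Alternatives covered scaling, background correction, filters, probes per gene, thresholds, fits and each array left out. The number of arrays limits the precision. Promoter sequences are from RefSeq, GRCm38.p6.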

Additional observations from a re-analysis of the deposited data

Results flagged for a closer look

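In groups of 4 arrays, a single array was marked when its gap to the nearest other array exceeded Dixon's critical share of the group's whole range. This marked 2 of 44 groups, and chance marks about 1 in 20. Both were Eln in females. MAT female replicate 3 was at 0.59 against -0.89 for the nearest and -1.06 for the farthest of the other arrays, a gap of 0.899 of the range. AGED female replicate 4 was at 1.09 against -0.61 and -0.83, a gap of 0.886 of the range.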

How the results depend on the processing

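Over 33 alternatives, 16 of them leaving out 1 array, 184 of 186 counts of called genes in the set were 0. The exceptions were 1 gene called between the sexes in AGED mice without AGED male replicate 2 and 1 without AGED female replicate 4, a range of 0 to 1 over the arrays left out. No age difference of the set reached 2-fold under any alternative, the largest being 0.93 for Loxl2 in males. Counts with age and the fold limit therefore had to be 0, whatever the p, and do not show stability. In the main fit 0.859% of all genes were called with age in males and 0.19% in females. Between the sexes in AGED mice 3.14% were called. The median difference of the set ranged over the arrays left out from -0.30 to 0.02 in males and from -0.15, without AGED female replicate 4, to 0.32 in females. Of 843 values of single genes 21 changed sign. With normexp correction, run on raw median spot signals, which moved the median of all genes in males to 0.12, the male difference was 0.17 for Fbn1, 0.02 for Emilin1 and 0.19 for Lox. With the mean of the kept probes, which averages in the dim second probe of Fbln5, this gene gave 0.05 in males with age and 0.07 between the sexes in AGED mice. With array weights the male differences of Fbn1 and Lox were 0.35 and 0.15, and the female difference of Lox -0.04. Over the arrays left out, the male ranges were -0.27 to 0.29 for Fbn1, -0.32 to 0.20 for Lox and -0.04 to 0.67 for Eln, and the female ranges -0.15 to 0.34 for Lox, -0.15 to 0.70 for Eln, -0.15 to 0.70 for Mfap4 and -0.02 to 0.23 for Loxl1. The cause was not tested. Ltbp4 was lower under every alternative run, from -0.60 to -0.25 in males and -0.54 to -0.34 in females, with lowest adjusted p of 0.0431 and 0.0834, and below 2-fold throughout. Averaged over the sexes it was -0.52 to -0.33, with adjusted p from 0.0198 to 0.162 (0.0422 with quantile normalization, 0.162 with the replicate block), below 0.05 under 7 of 27 alternatives. Replicate numbers did not pair the arrays (correlations of same-numbered deviations from -0.147 to 0.068), and with the replicate block 0 genes of the set were called and the medians stayed at -0.11 and 0.20. AGED male replicate 1 was the dimmest array.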

Other observations

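Across the 16 arrays, the gene with the pattern most like Eln among 15740 genes compared was Pdpn, which encodes podoplanin (Pearson r = 0.867, Spearman 0.862). It was followed by Fam20a (0.863), Ccnd2 (0.847), Slc27a3 (0.846) and Sgms2 (0.843). Within groups the correlation of Pdpn with Eln was 0.934, and without AGED male replicate 1 it was 0.835. The patterns most like the mean of the 10 genes were those of Lzic (0.848), Sgms2 (0.847), Rftn1 (0.837), Dpagt1 (0.829) and Cthrc1 (0.827), and Cthrc1, a secreted protein linked to collagen matrix, correlated at 0.901 within groups. These values are descriptions, chosen as the highest of many, and carry no test.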
